A study of Mus musculus with 18 samples.

Results

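Hnf4a, Nr1h4, Esrra, Maf, Pax2, Pax8 and Lhx1 are 7 transcription factor genes that set up or maintain the nephron epithelium. They were taken by gene name from the 29307 rows of the normalised expression table, and all 7 passed the filter on low values, with 16342 genes tested in all. Whole-kidney RNA was sequenced in 18 libraries from 6 groups of 3: IKKβ∆Tub mice and their controls, each at baseline (kidneys with no clamp), at day 2 (d2) and at day 14 (d14) after ischemia/reperfusion (I/R). IKKβ∆Tub mice carried IKKβ fl/fl alleles together with Pax8-rtTA-LC1-Cre, in which the Pax8 promoter drives the doxycycline-dependent activator in tubular epithelium. Controls carried IKKβ fl/fl without that transgene. All mice received doxycycline at 0.2 mg/mL for 2 weeks from 6 weeks of age, followed by 1 week of washout. I/R was a clamp of the left renal pedicle for 30 min. The labels give 2 mice per library, whereas the deposited sample key lists 10 pools of 2 mice and 8 single mice.

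The nephron arises from mesenchymal progenitors that turn into epithelium under PAX2 and PAX8, paired-box factors, and LHX1, a LIM homeodomain factor that is needed for the renal vesicle. HNF4A is a nuclear receptor that drives the proximal tubule programme of transporters and metabolic enzymes. NR1H4 encodes the bile acid receptor FXR, ESRRA encodes the orphan receptor ERRα, which controls mitochondrial genes with the coactivator PGC-1α, and MAF is a basic leucine zipper factor of the proximal tubule that macrophages also use. IKKβ is the kinase that releases NF-κB by phosphorylating its inhibitor.

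The genes lie, on GRCm38 with GENCODE M21, at chr2:163506808-163572910 (Hnf4a, plus strand), chr10:89454234-89533585 (Nr1h4, minus strand), chr19:6910977-6921813 (Esrra, minus strand), chr8:115682942-115707794 (Maf, minus strand), chr19:44756045-44837871 (Pax2, plus strand), chr2:24420560-24475599 (Pax8, minus strand) and chr11:84518284-84525535 (Lhx1, minus strand). Antisense genes share exons with Pax8 (Gm13415), Maf (Gm15655) and Esrra (Trmt112), and the strand setting of the counting is not given in the sources used here. Reads of these 3 members and of their partners can therefore not be told apart with certainty. Group means of Trmt112 lay between 0.241 and 0.331 and those of Gm15655 between 0.286 and 0.558, on the level scale defined below.

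RefSeq promoters (GRCm38.p6, from 250 bases before to 50 bases after a start) were found for 6 of the 7 members, 9 promoters in all. The promoters shown are those in which the letters of the nuclear receptor motif or of the NF-κB motif were found, since several members belong to the nuclear receptors and IKKβ acts through NF-κB. In the Nr1h4 promoter, capitals mark AGGTCA, the nuclear receptor motif, which lies there on the other strand and so reads TGACCT. In the Lhx1 promoter, capitals mark a match to the NF-kB consensus.
Nr1h4, chr10:89506609-89506908, minus strand: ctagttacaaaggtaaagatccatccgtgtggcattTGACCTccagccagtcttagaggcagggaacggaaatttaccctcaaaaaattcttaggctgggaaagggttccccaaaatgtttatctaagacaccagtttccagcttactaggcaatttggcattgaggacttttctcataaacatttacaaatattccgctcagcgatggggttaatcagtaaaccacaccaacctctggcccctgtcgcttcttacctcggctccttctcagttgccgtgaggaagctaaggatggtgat
Lhx1, chr11:84525485-84525784, minus strand: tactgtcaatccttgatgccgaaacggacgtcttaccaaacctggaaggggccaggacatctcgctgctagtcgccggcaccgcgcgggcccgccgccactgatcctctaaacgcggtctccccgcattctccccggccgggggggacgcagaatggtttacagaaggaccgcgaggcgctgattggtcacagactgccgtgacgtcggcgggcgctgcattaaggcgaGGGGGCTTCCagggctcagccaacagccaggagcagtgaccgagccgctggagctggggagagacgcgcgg

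AGGTCA lay at position -214 from this Nr1h4 start, on the other strand. This start lies inside the gene as GENCODE M21 annotates it, downstream of its 5′ end. The NF-kB consensus match in Lhx1 was at position -21. Both strands were searched and these matches overlapped no other. Of 32851 RefSeq promoters of the same length, 16.3% held AGGTCA and 8.46% held the NF-kB consensus. CCAAT, which 37.4% of promoters held, was found in Pax8, in both Hnf4a promoters and in Lhx1. The 3 Pax2 promoters and the Esrra promoter held none of these letters. A match of letters does not show that a factor binds there.

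Depth ran between 26285452 and 66317182 reads at baseline and between 12306138 and 25933188 reads after I/R. Baseline libraries came from another sequencing batch and another animal series than the post-I/R libraries, so I/R and batch cannot be told apart in any comparison with baseline. Libraries at d14 and d2 share the listed batch but not the animal series. Ikbkb, the targeted gene, was lower in IKKβ∆Tub than in control at baseline (0.376 to 0.551, against 0.736 to 0.861) and at d14 (0.669 to 0.844, against 1.11 to 1.21). At d2 the groups overlapped (0.846 to 0.986 in IKKβ∆Tub, against 0.829 to 1.29 in the libraries labelled control). Reads of Vmn1r32, which marked IKKβ∆Tub libraries at baseline and d14 and were 0 in all control libraries at those times, also stood at 21 and 31 in replicates 1 and 2 labelled control at d2, so values without these libraries are given where they change a call. That leaves 1 library in the d2 control group, from another animal series than the other d2 libraries, and its spread is then assumed to be that of the other groups. Among IKKβ∆Tub libraries at d14, replicate 2 stood apart from replicates 1 and 3: its macrophage markers summed to 2.58, against 13.9 and 11.7 in the others, its tubular injury markers to 35.0, against 126 and 167, and its proximal tubule markers to 141, against 56.0 and 70.3.

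A level of 1 is the 90th percentile of a library. Levels do not correct for gene length, so members were ordered by TPM, a transcript abundance per gene length and depth, computed from the recovered reads and the exon length. Hnf4a stood highest, at a mean of 556 TPM over the 18 libraries (370 to 797), followed by Nr1h4 at 231 TPM (111 to 396). Pax8 averaged 100.2 TPM, Esrra 82.6 TPM and Maf 33.3 TPM. Lhx1 at 20.0 TPM and Pax2 at 19.7 TPM were the lowest of the 7. The highest library exceeded the lowest by 4.36-fold in level for Lhx1, 4.23-fold for Nr1h4 and 3.95-fold for Esrra, and by 2.39-fold to 2.83-fold for the other 4 members.

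**Figure D1:**
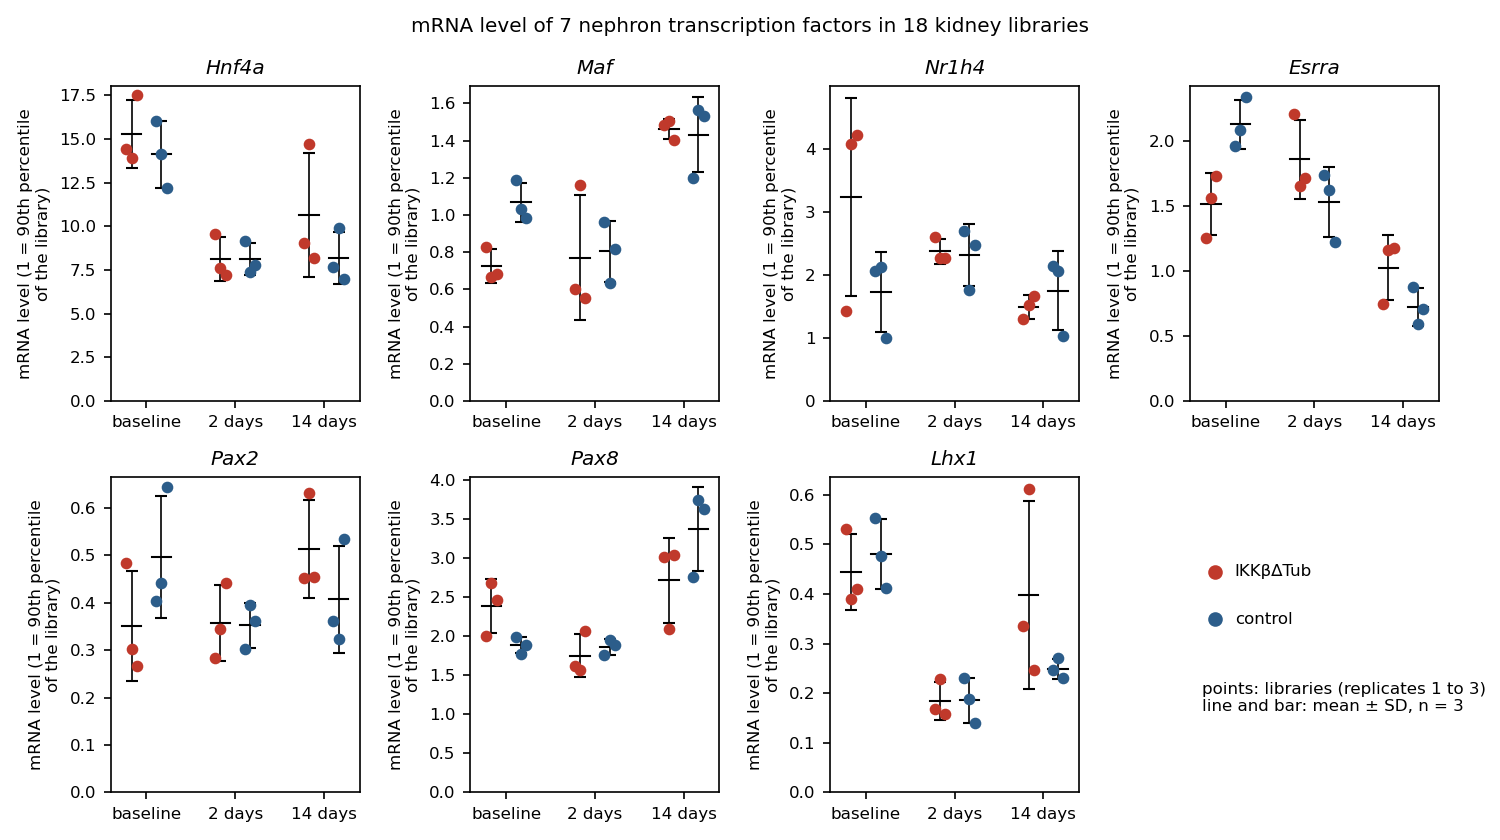
Level of each of the 7 members in every library (points, linear axes from 0, where 1 is the 90th percentile of the library) with the mean ± SD of each group (line and bar, n = 3), IKKβ∆Tub left of control at baseline, 2 days and 14 days. Lhx1 sits between 0.140 and 0.231 in the 6 libraries at d2, below all 6 baseline libraries, while Pax8 at d14 reaches 3.74 in control.

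Hnf4a fell after I/R in control kidneys at both times and in IKKβ∆Tub kidneys at d2. Its level was 14.4, 13.9 and 17.5 in IKKβ∆Tub libraries and 16.0, 14.1 and 12.2 in control libraries at baseline. At d2 it was 9.54, 7.59 and 7.20 in IKKβ∆Tub libraries and 9.15, 7.38 and 7.80 in libraries labelled control. At d14 it was 9.03, 14.7 and 8.16 in IKKβ∆Tub libraries and 7.66, 9.87 and 6.99 in control libraries. All 6 libraries at d2 lay below all 6 at baseline, and at d14 only IKKβ∆Tub replicate 2 reached the baseline range. On the log2 scale the change at d2 against baseline was -0.92 ± 0.22 in IKKβ∆Tub (SE, adjusted p = 0.00285, limma) and -0.80 ± 0.22 in control (adjusted p = 0.0105, limma). At d14 against baseline it was -0.57 ± 0.22 in IKKβ∆Tub (adjusted p = 0.0525, limma) and -0.79 ± 0.22 in control (adjusted p = 0.00748, limma). The IKKβ∆Tub value at d14 was -0.82 without replicate 2 (adjusted p = 0.00352, limma), and with all libraries after median-ratio rescaling it was also -0.82 (adjusted p = 0.0200, limma). Without replicates 1 and 2 labelled control at d2, the control change at d2 was -0.85 (adjusted p = 0.0918, limma). No difference between d14 and d2 was called, at 0.35 in IKKβ∆Tub and 0.0015 in control. Of 12 proximal tubule markers, 5 fell in IKKβ∆Tub and 6 in control at d2 against baseline, and 12 and 11 fell at d14 (14.9%, 11.3%, 11.2% and 17.3% of all genes tested fell). Of these markers, 6 fell and 1 rose in IKKβ∆Tub and 9 fell in control at d14 against d2, where Hnf4a itself was not called. Of all genes, 19.6% and 18.2% fell there. In whole kidney, fewer cells of a type and less RNA per cell cannot be told apart.

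Nr1h4, the bile acid receptor, passed the test in none of the comparisons and had the widest standard error of the 7. Its level was 1.43, 4.07 and 4.22 in IKKβ∆Tub libraries and 2.07, 2.13 and 0.997 in control libraries at baseline. At d2 IKKβ∆Tub libraries held 2.60, 2.26 and 2.26 and libraries labelled control 2.70, 1.76 and 2.48. At d14 IKKβ∆Tub libraries held 1.29, 1.52 and 1.67 and control libraries 2.14, 2.07 and 1.02. The lowest library of each baseline group and of the d14 control group held 0 Y-linked reads, while control baseline replicates 1 and 2 held 2.07 and 2.13 of Nr1h4 with 8 and 4 such reads. The change at d14 against baseline was -0.97 ± 0.38 in IKKβ∆Tub (adjusted p = 0.0527, limma) and 0.016 ± 0.38 in control (adjusted p = 0.976, limma). After median-ratio rescaling the IKKβ∆Tub change was -1.22 (adjusted p = 0.0281, limma), and edgeR gave -1.40 (adjusted p = 0.0114). Without IKKβ∆Tub baseline replicate 1, which held no Y-linked read, the IKKβ∆Tub change at d14 was -1.48 (adjusted p = 0.00252, limma). Without that library IKKβ∆Tub also stood above control at baseline, by 1.34 (adjusted p = 0.0200, limma), where the full set of libraries gave 0.82 ± 0.38 (adjusted p = 0.309, limma). The IKKβ∆Tub baseline libraries then left held 10553 and 10163 Y-linked reads, against 0, 0 and 1 in IKKβ∆Tub at d14. With all libraries and the mean Y-linked log2 level as a covariate, the IKKβ∆Tub change at d14 was -0.31 and was not called.

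Y-linked reads summed to 0, 10553 and 10163 in the IKKβ∆Tub baseline libraries and to 8, 4 and 0 in the control baseline libraries. At d2 they summed to 1024, 3380 and 613 in IKKβ∆Tub libraries and to 2498, 1 and 4 in libraries labelled control. At d14 they summed to 0, 0 and 1 in IKKβ∆Tub libraries and to 2677, 4772 and 0 in control libraries. The mix of males and females thus differed between and within groups. The slope of each member on the mean Y-linked log2 level within groups was fitted after the values had been seen. Over the whole range of that mean, Nr1h4 differed by 1.01 ± 0.23 on the log2 scale (SE, adjusted p = 0.0547, limma) and Pax2 by -0.62 ± 0.17 (adjusted p = 0.116, limma). The other 5 members had adjusted p-values of 0.566 to 0.987 (limma), and 0.783% of all genes tested passed. With the Y-linked mean as a covariate, the baseline difference of Nr1h4 between strains was 0.18 and its d14 difference 0.51.

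**Figure D2:**
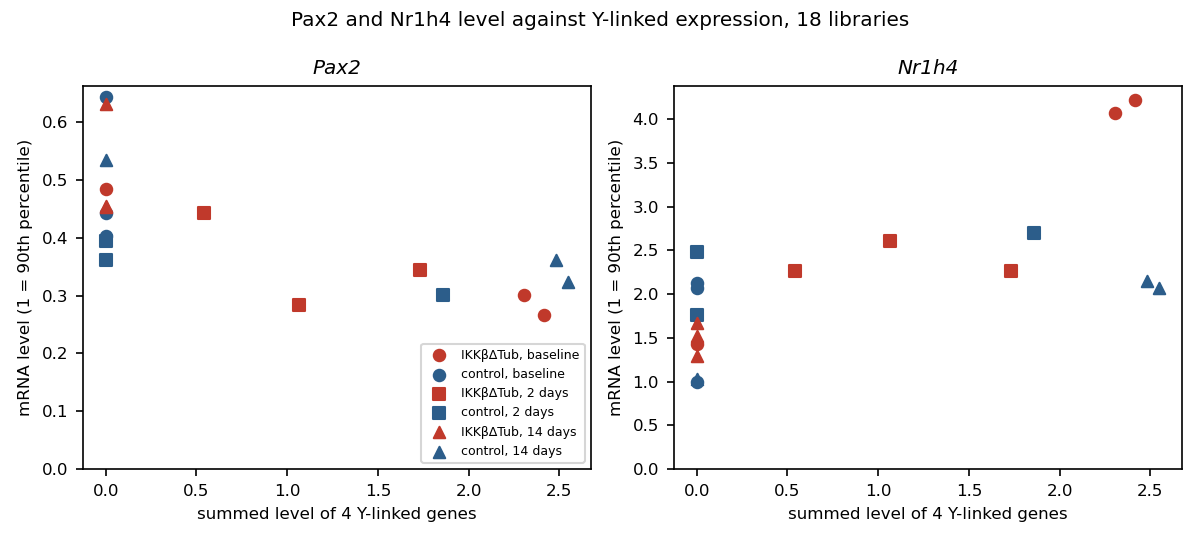
Level of Pax2 (left) and Nr1h4 (right) in the 18 libraries against the summed level of 4 Y-linked genes (both on linear axes, where 1 is the 90th percentile of the library), with colour for strain and symbol for time. The 2 IKKβ∆Tub baseline libraries at summed Y-linked levels of 2.30 and 2.42 hold 4.07 and 4.22 of Nr1h4 and 0.302 and 0.266 of Pax2, and the third, at 0, holds 1.43 and 0.484.

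Esrra, the receptor that acts with PGC-1α on mitochondrial genes, was lowest at d14 in both strains. Its level was 1.26, 1.56 and 1.73 in IKKβ∆Tub libraries and 1.96, 2.09 and 2.34 in control libraries at baseline. At d2 the level was 2.21, 1.66 and 1.72 in IKKβ∆Tub libraries, against 1.74, 1.62 and 1.23 in libraries labelled control. At d14 the level was 0.743, 1.16 and 1.18 in IKKβ∆Tub libraries, against 0.880, 0.591 and 0.708 in control libraries. No library at d14 reached any library at baseline of its own strain. Esrra fell by 0.58 ± 0.20 at d14 against baseline in IKKβ∆Tub (SE, adjusted p = 0.0330, limma) and fell by 1.56 ± 0.20 in control (adjusted p = 1.93e-05, limma). At d14 against d2 it fell by 0.87 in IKKβ∆Tub (adjusted p = 0.00392, limma) and fell by 1.07 in control (adjusted p = 0.000796, limma). The IKKβ∆Tub fall against baseline was lost in several settings: without IKKβ∆Tub replicate 1 at d14 it was -0.36 (adjusted p = 0.182, limma), without IKKβ∆Tub baseline replicate 2 it was -0.55 (adjusted p = 0.0891, limma) and without IKKβ∆Tub baseline replicate 3 it was -0.48 (adjusted p = 0.128, limma). With the Y-linked covariate it was -0.43 (adjusted p = 0.178, limma), and in a fit of the compared libraries alone it was -0.58 (adjusted p = 0.0973, limma). The IKKβ∆Tub change at d14 against d2 was -0.69 with the Y-linked covariate (adjusted p = 0.0502, limma). At d2 against baseline the control change was -0.49 (adjusted p = 0.0707, limma), and after median-ratio rescaling -0.68 (adjusted p = 0.0195, limma). Without replicates 1 and 2 labelled control at d2, the control change at d14 against d2 was -0.77 (adjusted p = 0.0938, limma).

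The difference between strains in the Esrra change at d14 against baseline was 0.98 ± 0.29 (SE, adjusted p = 0.114, limma), so the smaller fall in IKKβ∆Tub did not pass the test of the difference. Without IKKβ∆Tub replicate 1 at d14 that difference was 1.20 (adjusted p = 0.0378, limma).

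Maf, which is used by proximal tubule and by macrophages, was highest at d14. Its level was 0.829, 0.665 and 0.681 in IKKβ∆Tub libraries and 1.19, 1.03 and 0.986 in control libraries at baseline. At d2 it was 0.600, 1.16 and 0.552 in IKKβ∆Tub libraries and 0.961, 0.635 and 0.819 in libraries labelled control. At d14 it was 1.48, 1.51 and 1.40 in IKKβ∆Tub libraries and 1.20, 1.57 and 1.53 in control libraries. The 6 libraries at d14 were all above the 12 others, with IKKβ∆Tub d2 replicate 2 and control baseline replicate 1 the closest. Maf rose at d14 against baseline by 1.02 ± 0.22 in IKKβ∆Tub (SE, adjusted p = 0.00255, limma), against 0.41 ± 0.22 in control (adjusted p = 0.134, limma). At d14 against d2 it rose by 1.00 in IKKβ∆Tub (adjusted p = 0.00299, limma) and by 0.84 in control (adjusted p = 0.00853, limma). Without control d2 replicate 2 the control rise against d2 was 0.68 (adjusted p = 0.0505, limma), and without replicates 1 and 2 labelled control it was 0.79 (adjusted p = 0.116, limma). The summed level of 10 macrophage markers was 1.49 to 1.82 in IKKβ∆Tub and 1.75 to 2.17 in control libraries at baseline, 12.0 to 13.4 in IKKβ∆Tub and 7.95 to 10.2 in control libraries at d2, and 2.58 to 13.9 in IKKβ∆Tub and 21.5 to 29.6 in control libraries at d14. Between d2 and d14, 2 of these markers fell and 0 rose in IKKβ∆Tub, where Maf rose, and 6 rose and 0 fell in control. Of all genes, 19.6% fell in IKKβ∆Tub, a share near that of the markers, and 16.8% rose in control. IKKβ∆Tub replicate 2 at d14, with the lowest of the d14 sums, held 1.51 of Maf. The part of macrophages in the change of Maf was not tested in either strain.

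Pax8, whose promoter drives the deleter transgene, rose between d2 and d14. Its level was 2.00, 2.68 and 2.46 in IKKβ∆Tub libraries and 1.99, 1.78 and 1.89 in control libraries at baseline. At d2 IKKβ∆Tub libraries held 1.62, 1.57 and 2.06 and libraries labelled control 1.75, 1.95 and 1.89. At d14 IKKβ∆Tub libraries held 3.01, 2.09 and 3.04 and control libraries 2.76, 3.74 and 3.62. All d14 libraries lay above all d2 libraries of the same strain. The rise at d14 against d2 was 0.62 ± 0.17 in IKKβ∆Tub (SE, adjusted p = 0.0110, limma) and 0.84 ± 0.17 in control (adjusted p = 0.00133, limma). In a fit of the compared libraries alone, the IKKβ∆Tub rise had an adjusted p of 0.0648 (limma). Without replicates 1 and 2 labelled control at d2, the control value was 0.82 (adjusted p = 0.0518, limma). At d14 against baseline the difference was 0.18 in IKKβ∆Tub (adjusted p = 0.428, limma), whereas Pax8 rose by 0.83 in control (adjusted p = 0.00088, limma). At d2 against baseline Pax8 fell by 0.44 in IKKβ∆Tub (adjusted p = 0.0396, limma), against -0.016 in control (adjusted p = 0.954, limma). After median-ratio rescaling the IKKβ∆Tub value was -0.77. That IKKβ∆Tub call was lost without IKKβ∆Tub baseline replicate 2 (-0.35, adjusted p = 0.147, limma) or replicate 3 (-0.41, adjusted p = 0.102, limma), and without IKKβ∆Tub d2 replicate 1 (-0.39, adjusted p = 0.118, limma) or replicate 2 (-0.37, adjusted p = 0.116, limma). With no filter, with no trend and with the compared libraries alone its adjusted p-values were 0.0535, 0.0531 and 0.0580 (limma).

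Lhx1, the LIM homeodomain factor of the early nephron, fell most of the 7 at d2. Its level was 0.532, 0.390 and 0.411 in IKKβ∆Tub libraries and 0.554, 0.476 and 0.413 in control libraries at baseline. At d2 the level was 0.168, 0.229 and 0.157 in IKKβ∆Tub libraries, against 0.231, 0.188 and 0.140 in libraries labelled control. At d14 the level was 0.335, 0.611 and 0.247 in IKKβ∆Tub libraries, against 0.247, 0.271 and 0.231 in control libraries. The d2 libraries lay below all baseline libraries, the d14 control libraries lay between them and baseline, and IKKβ∆Tub replicate 2 at d14 was the highest of all 18. At d2 against baseline Lhx1 fell by 1.25 ± 0.27 in IKKβ∆Tub (SE, adjusted p = 0.00115, limma) and fell by 1.36 ± 0.27 in control (adjusted p = 0.000934, limma). At d14 against baseline the difference was -0.25 in IKKβ∆Tub (adjusted p = 0.486, limma), whereas Lhx1 fell by 0.93 in control (adjusted p = 0.00926, limma). Without IKKβ∆Tub replicate 2 at d14 the IKKβ∆Tub value was -0.61 (adjusted p = 0.0425, limma). At d14 against d2 it rose by 1.00 in IKKβ∆Tub (adjusted p = 0.00942, limma), against 0.44 in control (adjusted p = 0.219, limma). In a fit of the compared libraries alone, that IKKβ∆Tub rise had an adjusted p of 0.0658 (limma).

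Pax2, the paired-box partner of Pax8 that also marks collecting duct, passed in none of the comparisons. Its level was 0.484, 0.302 and 0.266 in IKKβ∆Tub libraries and 0.404, 0.442 and 0.643 in control libraries at baseline. At d2 it was 0.284, 0.345 and 0.442 in IKKβ∆Tub libraries and 0.302, 0.394 and 0.362 in libraries labelled control. At d14 it was 0.453, 0.632 and 0.455 in IKKβ∆Tub libraries and 0.362, 0.324 and 0.535 in control libraries. The strains overlapped at each time. The largest time difference of Pax2 was 0.57 ± 0.25 at d14 against baseline in IKKβ∆Tub (SE, adjusted p = 0.0827, limma), and it was -0.29 in control (adjusted p = 0.361, limma). Without IKKβ∆Tub baseline replicate 1 the IKKβ∆Tub value was 0.83 (adjusted p = 0.0166, limma). The baseline libraries then left held 10553 and 10163 Y-linked reads, against 0, 0 and 1 in IKKβ∆Tub at d14. With all libraries and the Y-linked covariate the IKKβ∆Tub value was 0.17 and was not called. At d2 against baseline the control difference was -0.47 (adjusted p = 0.163, limma), whereas after median-ratio rescaling it was -0.66 (adjusted p = 0.0433, limma) and edgeR gave -0.71 (adjusted p = 0.0357).

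**Figure D3:**
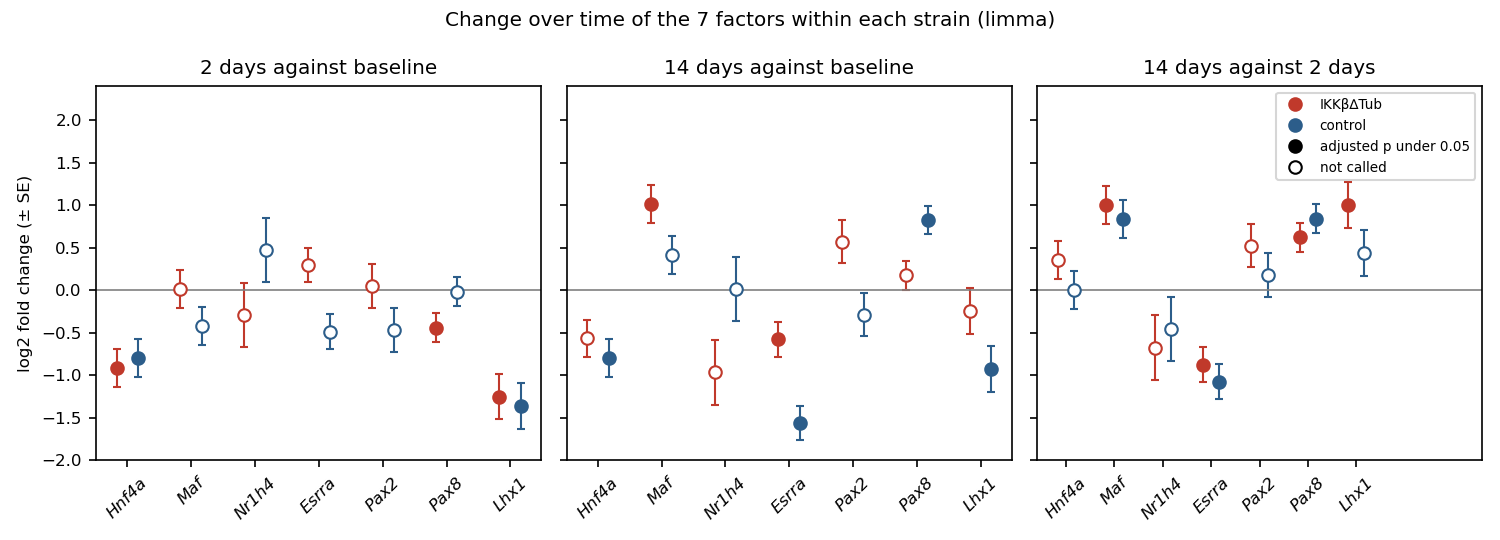
Log2 change of each member with its standard error (bars) at d2 against baseline, d14 against baseline and d14 against d2, IKKβ∆Tub left of control, where filled symbols passed an adjusted p of 0.05 in limma. Lhx1 falls at d2 in IKKβ∆Tub and in control (-1.25 and -1.36), and Esrra lies at -0.58 in IKKβ∆Tub and -1.56 in control at d14.

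Of the 7 members, 3 fell and 0 rose at d2 against baseline in IKKβ∆Tub, where 50.2% of all genes tested were called (35.4% higher and 14.9% lower), and 2 fell and 0 rose in control, where 36.7% were called (25.4% higher and 11.3% lower). At d14 against baseline 1 rose and 1 fell in IKKβ∆Tub, where 39.5% of all genes were called (28.3% higher and 11.2% lower), and 1 rose and 3 fell in control, where 49.7% were called (32.5% higher and 17.3% lower). At d14 against d2, 3 rose and 1 fell in IKKβ∆Tub, where 33.7% were called (14.1% higher and 19.6% lower), and 2 rose and 1 fell in control, where 35% were called (16.8% higher and 18.2% lower). The libraries of the 2 times did not overlap at d2 against baseline in 2 members in IKKβ∆Tub (56.3% of all genes) and 5 in control (56.7%), at d14 against baseline in 2 in IKKβ∆Tub (43.4%) and 5 in control (59%), and at d14 against d2 in 6 in IKKβ∆Tub (40%) and 4 in control (51.2%). With 7 members a single gene moves such a share widely, and nothing particular to the members is read from these counts. Median changes of the members were -0.29 in IKKβ∆Tub and -0.47 in control at d2 against baseline, beside 0.25 and 0.16 over all genes, and -0.25 and -0.29 at d14 against baseline, beside 0.25 and 0.23 over all genes. Median-ratio rescaling moved the median of all genes at d2 and d14 against baseline to -0.033 and 0.023 in IKKβ∆Tub and to -0.0073 and 0.039 in control. The share of called genes that were higher then changed to 49.0% and 50.9% in IKKβ∆Tub, where it had been 70.4% and 71.7%, and to 53.2% and 51.2% in control, where it had been 69.3% and 65.3%. With the 1 library left in the d2 control group without replicates 1 and 2, 1 member, Lhx1, was called at d2 against baseline in control, and 0 at d14 against d2, while the changes of the other called members were about as large (-0.85 and -0.80 for Hnf4a at d2 without and with both libraries, 0.82 and 0.84 for Pax8 and 0.79 and 0.84 for Maf at d14 against d2), except Esrra (-0.77 and -1.07).

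Between strains, no member passed at any time in limma, where 0.0428% of all genes were called at baseline, 0% at d2 and 0.367% at d14. An unadjusted p under 0.05 (limma) was reached by 3 members (Nr1h4, Maf and Esrra) at baseline, 0 at d2 and 1 (Esrra) at d14. Of all 16342 genes tested, 2551, 1105 and 2281 reached it at these times, and nothing particular to the members is read from the counts. edgeR and DESeq2 called 0 members at each time. At baseline the difference of IKKβ∆Tub from control was 0.82 ± 0.38 on the log2 scale in Nr1h4, whose libraries overlapped. It was -0.56 ± 0.22 on the log2 scale in Maf (adjusted p = 0.251, limma) and -0.50 ± 0.20 in Esrra (adjusted p = 0.254, limma). Pax8 stood 0.33 ± 0.17 above control at baseline (adjusted p = 0.372, limma). In Maf, Esrra and Pax8 the IKKβ∆Tub and control libraries did not overlap at baseline, as was the case for 22.1% of all genes tested. At d2 and d14 the strains overlapped in each member, where 12.6% and 13.5% of all genes did not overlap. At d2 the strain differences of the 7 members lay within 0.28 of 0, with Esrra at 0.28 ± 0.20 (adjusted p = 0.830, limma). Replicates 1 and 2 labelled control at d2 carried the Vmn1r32 reads that marked IKKβ∆Tub, so these d2 values do not compare the strains cleanly. Without both, which leaves 1 control library, the difference was 0.59 for Esrra and 0.37 for Lhx1. It was then 0.045 for Hnf4a, -0.041 for Pax2 and -0.063 for Nr1h4. At d14 the largest difference was Lhx1 at 0.56 ± 0.27 (adjusted p = 0.363, limma), followed by Esrra at 0.49 ± 0.20 (adjusted p = 0.284, limma). The difference between strains in the change over time passed in no member either, with 0% of all genes called at d2 against baseline, 0.116% at d14 against baseline and 0.0306% at d14 against d2. In these comparisons 1, 3 and 0 members reached an unadjusted p under 0.05 (limma), as did 2451, 2841 and 1594 of all 16342 genes tested. edgeR and DESeq2 called 0 members in each.

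The genes known as targets of these factors were counted beside them. The lists were written from general knowledge and not from binding data of these kidneys. Earlier results of these data were known when the lists were chosen, so their counts are a description. Of 18 HNF4A targets of the proximal tubule, 11 fell in IKKβ∆Tub and 12 in control at d2 against baseline, and 14 and 15 fell at d14, with none higher (14.9%, 11.3%, 11.2% and 17.3% of all genes fell). The median of these targets at d14 against baseline stood at -1.22 in IKKβ∆Tub and at -2.37 in control. Slc22a8, an organic anion transporter, fell by 2.37 in IKKβ∆Tub and fell by 4.28 in control at d14. Pck1, the key enzyme of gluconeogenesis, fell by 3.25 in IKKβ∆Tub and fell by 2.31 in control at d2, and in IKKβ∆Tub rose by 2.42 at d14 against d2. In control Pck1 was not called higher at d14 against d2. The difference between strains in the change at d14 against d2 passed in none of the 18 targets. Of these targets, 6 are also among the proximal tubule markers.

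At d14 the HNF4A targets stood higher in IKKβ∆Tub than in control in 16 of 18 genes, with a median of 0.73, and 1 of them passed. Over all genes the median was -0.052, and 0.367% passed. The summed level of the 18 targets at d14, by size, was 106, 122 and 226 in IKKβ∆Tub and 70.5, 93.9 and 96.6 in control libraries. Slc2a2, the basolateral glucose transporter GLUT2, was at 1.93, 2.10 and 1.64 in IKKβ∆Tub libraries and at 0.865, 0.618 and 0.850 in control libraries, a difference of 1.28 ± 0.21 (SE, adjusted p = 0.0127, limma). The groups of Slc2a2 did not overlap, as was the case for 13.5% of all genes tested. The summed level of the proximal tubule markers at d14 was 56.0, 141 and 70.3 in IKKβ∆Tub libraries and 63.9, 52.9 and 43.5 in control libraries, and its part in the target levels was not tested. The Hnf4a difference itself was 0.34 ± 0.22 (adjusted p = 0.544, limma).

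Of 15 ERRα targets beside Esrra itself, 5 fell and 1 rose in IKKβ∆Tub and 6 fell and 1 rose in control at d2 against baseline, and 10 fell and 1 rose in IKKβ∆Tub and 13 fell in control at d14. The shares of all genes that fell were 14.9% and 11.3% at d2 and 11.2% and 17.3% at d14, and those that rose were 35.4% and 25.4% at d2 and 28.3% and 32.5% at d14. The rise in IKKβ∆Tub at d2 was of Slc25a4, by 0.59 ± 0.17 (SE, adjusted p = 0.0101, limma) at a mean level of 5.46. The rises in control at d2 and in IKKβ∆Tub at d14 were of Cpt1b, at a mean level of 0.0073, and are not read. Acadm, an enzyme of fatty acid oxidation, fell by 2.31 in IKKβ∆Tub and fell by 2.04 in control at d2. Cycs, the electron carrier cytochrome c, fell by 1.44 in IKKβ∆Tub and fell by 1.52 in control at d14 against d2. Cox5b, a subunit of cytochrome c oxidase, fell by 2.06 in control at d14 against baseline. Its difference between strains in that change was 0.98 ± 0.35 (SE, adjusted p = 0.174, limma) and did not pass. At d14, 14 of 15 stood higher in IKKβ∆Tub than in control, with a median of 0.37 beside -0.052 over all genes, and 0 passed. The summed level of the targets with Esrra at d14, by size, was 49.3, 62.8 and 106 in IKKβ∆Tub and 45.7, 47.7 and 56.3 in control libraries. The part of the proximal tubule in these target levels was not tested.

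Of the FXR targets, 8 of 9 could be tested, and 1 fell and 1 rose at d2 against baseline in each strain. At d14 against baseline 4 fell in IKKβ∆Tub and 5 in control, with 1 higher in each. Of all genes, 14.9% and 11.3% fell and 35.4% and 25.4% rose at d2, and 11.2% and 17.3% fell at d14. The rises at d2 are not read, since Abcb11 in IKKβ∆Tub and Abcb4 in control had mean levels of only 0.0031 and 0.0089. Nr0b2, among the falls in control at d14, averaged 0.014. Slc51a, a subunit of the basolateral bile acid exporter, fell by 1.94 in IKKβ∆Tub and fell by 1.60 in control at d14. Of 9 PAX2 and PAX8 targets beside Lhx1, 4 fell and 0 rose in IKKβ∆Tub and 5 fell and 1 rose in control at d2 (14.9% and 11.3% of all genes fell). At d14 against baseline 1 fell and 1 rose in IKKβ∆Tub and 3 fell and 3 rose in control. Over all genes 11.2% fell and 28.3% rose in IKKβ∆Tub, and 17.3% fell and 32.5% rose in control. The falls in IKKβ∆Tub and the rises in control are near these shares, and nothing is read from them. Wnt4, a ligand of the early nephron, rose by 3.19 in control at d14, against 1.07 in IKKβ∆Tub (adjusted p = 0.166, limma). Gfra1, the coreceptor of GDNF, fell by 2.54 in IKKβ∆Tub and fell by 2.11 in control at d2 and was 1.21 and 1.54 higher at d14 than at d2. Of the MAF targets, 4 of 5 could be tested, and 1 rose at d2 against baseline in each strain (35.4% and 25.4% of all genes rose). This was Cryab, a small heat shock protein, which rose by 0.68 in IKKβ∆Tub and by 0.77 in control. It fell by 0.90 and 0.72 at d14 against d2. A call of Cryaa at d2 and d14 in IKKβ∆Tub is not read, since that gene had at most 61 reads in any library and passed the filter through baseline libraries.

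**Figure D4:**
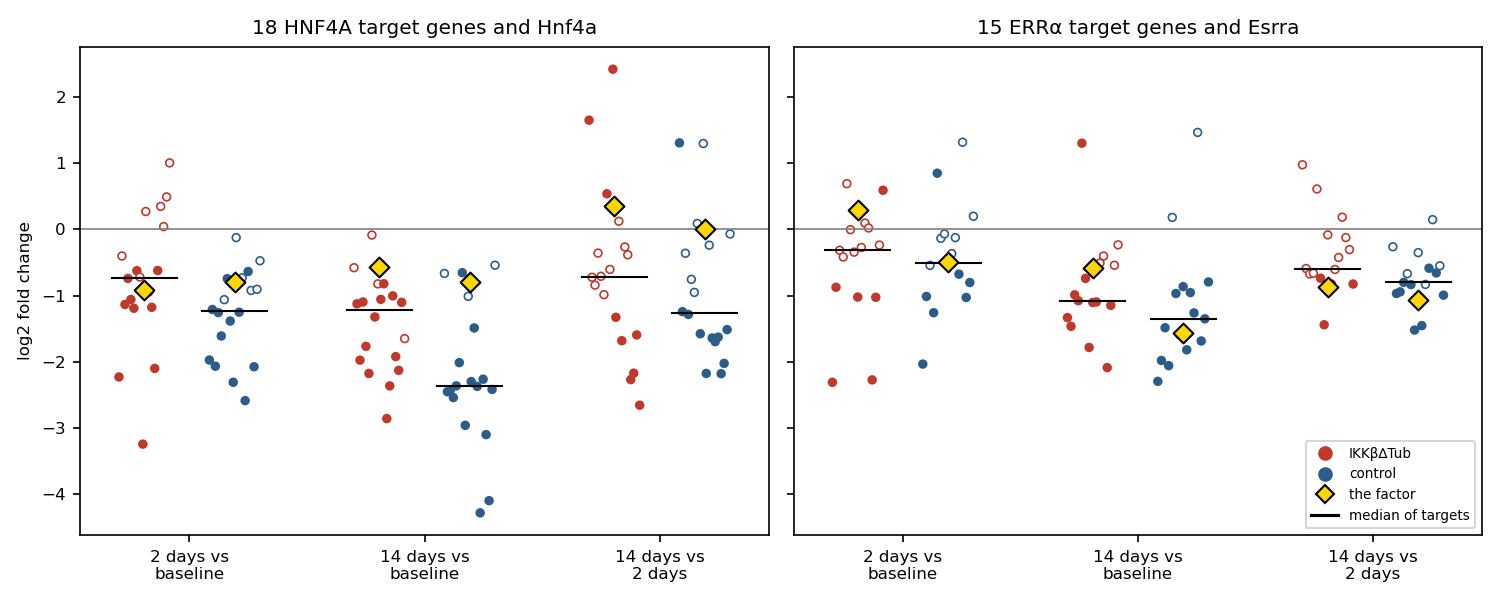
Log2 change of 18 HNF4A targets (left) and 15 ERRα targets (right) in the 3 time comparisons (circles, filled where the adjusted p was under 0.05 in limma), IKKβ∆Tub left of control, with the median of the targets as a line and the factor itself as a diamond. The HNF4A targets have a median of -1.22 in IKKβ∆Tub and -2.37 in control at d14 against baseline.

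Of 15 partners and cofactors of the members tested, 8 fell in IKKβ∆Tub and 5 in control at d2 against baseline, with none higher (14.9% and 11.3% of all genes fell). At d14 against d2, 7 rose and 0 fell in IKKβ∆Tub and 5 rose and 2 fell in control, where 14.1% and 16.8% of all genes rose. Ppargc1a, which encodes PGC-1α, fell by 1.67 in IKKβ∆Tub and fell by 1.37 in control at d2, and in IKKβ∆Tub rose by 1.54 at d14 against d2. Its difference between strains in the change at d14 against d2 was 0.83 ± 0.35 (SE, adjusted p = 0.440, limma) and did not pass. Rxra, the dimer partner of FXR, fell by 0.57 in IKKβ∆Tub and fell by 0.65 in control at d2. Ldb1, which links LIM homeodomain factors such as LHX1 into complexes, rose at d14 against baseline by 1.37 in IKKβ∆Tub and by 1.33 in control.

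Of 12 other transcription factors of the proximal tubule, 7 fell in IKKβ∆Tub and 6 in control at d2 against baseline, with none higher (14.9% and 11.3% of all genes fell). Ppargc1a, Ppargc1b and Rxra are counted both here and among the partners. At d14 against d2, 7 rose and 1 fell in IKKβ∆Tub, and 4 rose and 2 fell in control. Of all genes, 14.1% and 16.8% rose and 19.6% and 18.2% fell. Klf15 fell by 1.69 in IKKβ∆Tub and fell by 1.67 in control at d2, and Foxo3, a forkhead factor, rose by 1.25 in control at d14 against d2. The difference between strains in the change at d14 against d2 passed in none of these 12 factors, and its lowest value was -0.060. The Foxo3 rise is thus not read as particular to control. Of 15 factors of the loop of Henle and distal convoluted tubule, 8 fell and 1 rose in IKKβ∆Tub and 7 fell in control at d2. At d14 against baseline 1 fell and 1 rose in IKKβ∆Tub and 7 fell in control. Of all genes, 14.9% and 11.3% fell at d2 and 11.2% and 17.3% at d14. Esrrb, an orphan receptor related to ERRα, fell by 1.86 in IKKβ∆Tub and fell by 2.16 in control at d2. Of 10 factors of the collecting duct, 4 fell in IKKβ∆Tub and 6 in control at d2 (14.9% and 11.3% of all genes fell).

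Of 11 factors of nephron progenitors and of the injured or regenerating tubule, 4 rose and 1 fell in IKKβ∆Tub and 6 rose and 1 fell in control at d2 against baseline, where 35.4% and 25.4% of all genes rose. At d14 against baseline 4 rose in IKKβ∆Tub and 7 in control, with none lower, where 28.3% and 32.5% of all genes rose. The IKKβ∆Tub counts are near these shares, and nothing particular to the list is read from them. Foxm1, which drives cell cycle genes, rose by 5.43 in IKKβ∆Tub and by 4.72 in control at d2, and at d14 against d2 it changed by -4.18 in IKKβ∆Tub and by -3.79 in control. Sox9, a factor of regenerating tubule, rose at d14 against baseline by 1.73 in IKKβ∆Tub and by 4.23 in control. Its difference between strains in that change was -2.50 ± 0.58 (SE, adjusted p = 0.0790, limma) and did not pass.

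**Figure D5:**
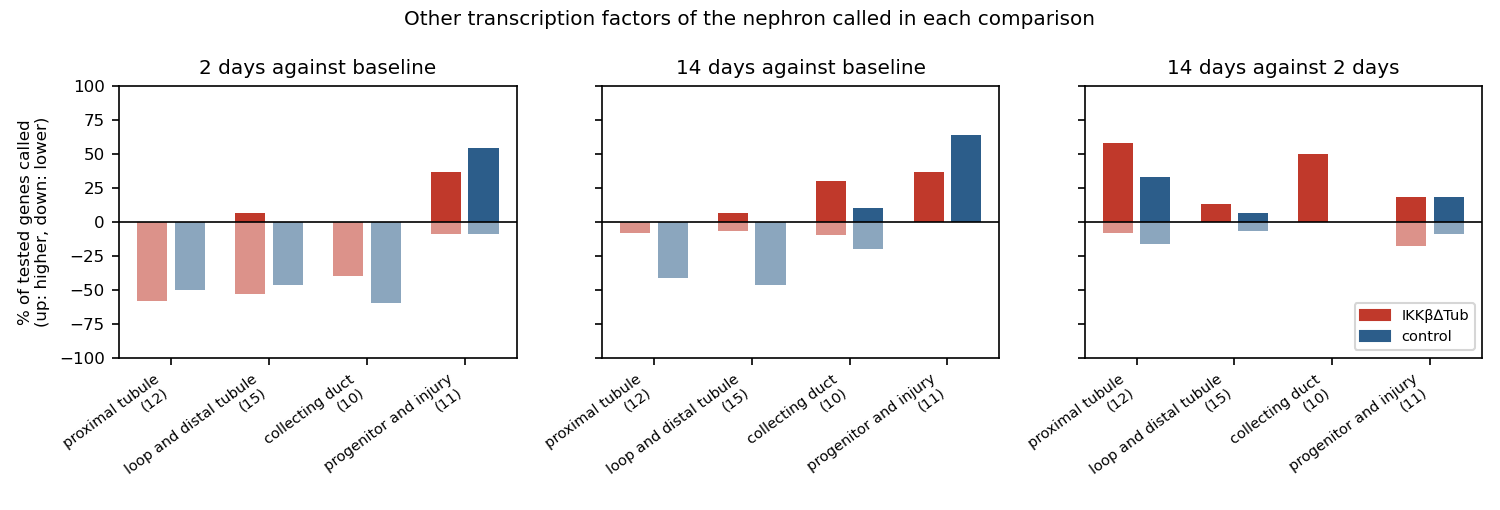
Share of the tested factors of each list (in %, numbers tested in brackets) that were higher (up, dark) or lower (down, pale) with an adjusted p under 0.05 in limma in the 3 time comparisons, IKKβ∆Tub left of control. At 2 days against baseline 7 of 12 proximal tubule factors were lower in IKKβ∆Tub and 6 of 12 in control.

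The genes whose pattern was most like each member were taken by Pearson correlation of log2 levels over the 18 libraries among 12137 genes. The 18 libraries differ together in group, batch and depth, so these values are a description. For Hnf4a they were Kmo, an enzyme of tryptophan breakdown (r = 0.96), the pyruvate carboxylase gene Pcx (r = 0.95) and the fatty acid transporter gene Slc27a2 (r = 0.95). For Esrra they were Fxyd2, a subunit of the sodium pump, Pth1r, the receptor for parathyroid hormone, and Pcbd1, an enzyme that recycles tetrahydrobiopterin (r = 0.98 each). For Lhx1 it was Enpp1 at 0.96, for Pax8 Cblb at 0.93, for Nr1h4 Mogat1 at 0.92, for Maf Arid4a at 0.92 and for Pax2 Car8 at 0.87. Over the 12 post-I/R libraries alone, Pcbd1 stayed among the 3 genes nearest to Esrra (r = 0.99) and Car8 was still the nearest to Pax2 (r = 0.91). For Hnf4a the nearest over these 12 were Por, the reductase of cytochrome P450 enzymes (r = 0.91), and Vdr, the vitamin D receptor (r = 0.90). Among the members themselves, Hnf4a and Lhx1 had r = 0.87 over 18 and 0.76 over 12 libraries. Pax8 and Esrra ran in opposite directions, with r = -0.82 over 18 and -0.91 over 12 libraries.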

How the data were processed

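RNA of whole kidneys was sequenced by the authors with a stranded poly(A) kit. Per the labels and the study's methods, reads were trimmed with Trim Galore 0.4, aligned to GRCm38 with STAR 2.5.2b and counted with featureCounts 1.5.2, and the authors deposited a signal per gene, each gene count scaled to the 90th percentile of the sample. Fold changes and p-values of the authors' own comparisons were not used. Whole reads were recovered from the deposited signal (100% of values whole within 0.001 of a read in every library).

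Levels were tested with limma 3.58.1 (R 4.3.3, eBayes with trend) on log2(level + 0.005) over 16342 genes with at least 0.005 in at least 3 libraries. A fold change is on this scale and understates that of low genes. All 18 libraries entered 1 fit of 6 group means, and a gene was called at a Benjamini-Hochberg adjusted p under 0.05 over all genes tested. The p-values measure the spread between libraries, whose number of mice differs. The fit was also run on simulated counts. These held no batch, no mix of males and females and no doubtfully labelled library, so they do not show how the fit behaves under those. edgeR 4.0.16 and DESeq2 1.42.0 on the recovered reads, other pseudocounts and filters, median-ratio rescaling, a Y-linked covariate, the replicate block, the omission of 2 libraries labelled control at d2 and of each library in turn were the alternatives. Replicate numbers did not pair the libraries: in no comparison did all 3 same-numbered pairs have a correlation over 0.1.

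The members and lists were chosen with earlier results of these data known. All 7 members were named in every comparison, with the 3 genes nearest to each by correlation (mean level of at least 0.05), and of each list up to 4 genes, the 2 highest and the 2 lowest among those called. Gene positions are from GENCODE M21, matched by ID for 29081 genes. Only 2.74% of the starts in the table equal those of that annotation. Values of 1 listed gene are not reported here.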

Additional observations from a re-analysis of the deposited data

How the results depend on the processing

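The 18 calls of members over time had 527 values under the alternatives, of which 507 still passed, 20 did not and 0 changed direction. The replicate block left the count of members called at 3, 2 and 4 in IKKβ∆Tub (d2 against baseline, d14 against baseline, d14 against d2) and at 2, 4 and 3 in control. Over all genes it called 2 where 7 were called between strains at baseline, 30 where 60 were called at d14, and 7 where 19 were called for the strain difference in the change at d14 against baseline. At baseline edgeR called 79 genes and DESeq2 738, and at d14 they called 5 and 501. Baseline comparisons are limited by batch, and the depth of the post-I/R libraries is the lower one. The cause of the changes below was not tested.

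Median-ratio rescaling, edgeR and DESeq2 each called 4 members in IKKβ∆Tub at d14 against baseline and 4 in control at d2 against baseline. In IKKβ∆Tub at d14 against baseline, 1 was called with only the libraries compared and 1 with the Y-linked covariate. Without replicates 1 and 2 labelled control at d2, which leaves 1 library in that group, control had 1 at d2 against baseline and 0 at d14 against d2, with changes about as large as with all libraries in 3 of the 4 lost calls. In IKKβ∆Tub at d14 against d2, Lhx1 and Pax8 were not called with only the libraries compared, nor was Esrra with the Y-linked covariate. Leaving out each library in turn gave 2 to 3, 1 to 4 and 4 to 4 members in IKKβ∆Tub (d2 against baseline, d14 against baseline, d14 against d2), 2 to 3, 4 to 5 and 2 to 3 in control, 0 to 1 between strains at baseline and 0 at d2 and d14, and 0 to 1 for the strain difference in the change at d14 against baseline and 0 for the other 2 such differences.

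The changes of direction were all in values that did not pass. Rescaling, edgeR and DESeq2 gave, in IKKβ∆Tub at d2 against baseline, -0.27, -0.28 and -0.28 for Pax2, -0.31, -0.21 and -0.21 for Maf and -0.027, -0.039 and -0.037 for Esrra. They gave -0.075, -0.085 and -0.080 for Pax8 in IKKβ∆Tub and -0.20, -0.24 and -0.22 for Nr1h4 in control at d14 against baseline, and -0.028, -0.0041 and -0.013 for Pax2 between strains at d2. Rescaling and DESeq2 gave -0.017 and -0.0057 for Hnf4a in control at d14 against d2, and -0.015 and -0.0049 for Lhx1 in the strain difference of the d2 change. With the Y-linked covariate Nr1h4 was 0.13 in IKKβ∆Tub at d14 against d2, -0.64 in control at d14 against baseline, -0.41 and 0.51 between strains at d2 and d14, and 0.33 and 0.93 in the strain difference of the d14 change against baseline and against d2. Pax2 was then 0.12 in control at d14 against baseline, -0.062 between strains at d14 and -0.36 in the strain difference of the change at d14 against d2, and Hnf4a was -0.083 in control at d14 against d2 and -0.041 between strains at baseline. Without replicates 1 and 2 labelled control at d2, the strain differences at d2 were 0.045 for Hnf4a, -0.041 for Pax2, 0.37 for Lhx1 and -0.063 for Nr1h4, Pax8 in control at d2 against baseline was 0.0031, and the strain difference in the Esrra change at d14 against d2 was -0.10.

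With 1 library left out, the values whose direction changed had these ranges. Between strains at d2 they were -0.13 to 0.085 for Hnf4a, -0.16 to 0.15 for Pax2, -0.19 to 0.16 for Lhx1, -0.46 to 0.072 for Maf and -0.12 to 0.18 for Nr1h4, and at d14 they were -0.081 to 0.11 for Maf and -0.50 to 0.029 for Nr1h4. In IKKβ∆Tub they were -0.12 to 0.30 for Pax2 and -0.32 to 0.21 for Maf at d2 against baseline, and -0.61 to 0.040 for Lhx1 at d14 against baseline. In control they were -0.058 to 0.027 for Pax8 at d2 against baseline, -0.34 to 0.36 for Nr1h4 at d14 against baseline, and -0.14 to 0.11 for Hnf4a and -0.033 to 0.32 for Pax2 at d14 against d2. For strain differences in change they were -0.071 to 0.28 for Lhx1 at d2 against baseline, -0.030 to 0.39 for Hnf4a at d14 against baseline and -0.030 to 0.50 for Maf at d14 against d2.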

Other observations

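Of the factors of podocytes, 3 were analysed here. Wt1, which is needed for podocyte identity, rose at d14 against baseline by 1.08 in IKKβ∆Tub and by 0.69 in control, and at d14 against d2 by 0.99 in IKKβ∆Tub and by 0.75 in control (limma). Tcf21, a factor of podocytes and of interstitial cells, rose in IKKβ∆Tub by 2.24 at d2 and by 2.02 at d14 against baseline (limma). In control its changes were 0.58 and 0.70 and were not called. At baseline Tcf21 differed by -1.18 between IKKβ∆Tub and control, which did not pass. Nor did the difference between strains in either change. No factor of this list passed between strains.

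Among factors of the distal nephron, Emx1 changed by 0.40 in IKKβ∆Tub and by -1.66 in control at d14 against baseline. The difference between strains in that change was 2.06 ± 0.40 on the log2 scale (SE, adjusted p = 0.0547, limma), and it did not pass.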
